A study of Drosophila melanogaster with 13 samples.

Results

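The expression of 8 homeodomain transcription factor genes was followed through the secondary cells of the Drosophila male accessory gland. The genes were chosen by symbol (abd-A, Abd-B, Ubx, exd, hth, dve, vvl and prd), and all 8 were found among the 16727 symbols of the deposited table of read counts. Secondary cells are large, vacuolated cells at the tip of the accessory gland, where they secrete seminal fluid proteins beside the more numerous main cells. Sorted cells of 3 genotypes were compared by RNA-seq. RNA recovered from glands through a tagged ribosomal protein, with the aim of reaching the same cell type, was compared with a mock recovery.

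All 13 libraries came from males aged 5 to 11 days, and all carried the D1:GAL4 driver, which drives the GFP transgenes named below. The wild-type (wt), D1 and miP groups had 3 libraries each of GFP-positive cells, sorted after protease treatment. All 3 groups carried UAS-GFP. The D1 group carried iab-6cocuD1 in addition, a lesion whose name points to iab-6, one of the regulatory domains within the Bithorax complex. The driver and this mutant share the name D1, and below D1 means the mutant. The miP group carried delta MSAmiP, which removes a micropeptide encoded within the long non-coding RNA gene iab-8. The ribosome immunoprecipitation (IP) group had 3 libraries made with an anti-GFP antibody from UAS GFP-RPL10Ab glands, and the control IP was 1 library made with the same antibody from UAS GFP glands. Sorted and IP libraries thus differed in method, in the use of protease and in transgene together. The labels call the libraries of a group biological replicates and give no further detail of the animals, so the p-values below measure the spread between these libraries.

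Hox proteins tell segments of the body apart, and in Drosophila the Bithorax complex encodes the posterior trio Ubx, abd-A and Abd-B, in that order along the chromosome. Hox proteins bind DNA with low selectivity alone and gain selectivity from TALE-class partners. Exd is the main partner, and Hth carries Exd into the nucleus and keeps it stable. The remaining genes encode homeodomain factors of other classes: Dve, named for its part in the larval proventriculus, Prd, a paired-domain protein required for accessory gland development, and Vvl, a POU-domain protein of the tracheal and nervous systems. Abd-B is known to be needed for secondary cells to take their form.

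In units of 1000000 counts, library totals ranged from 18.21 to 26.09 in the sorted libraries and from 11.18 to 21.40 in the IPs, and the control IP held 3.701. Summed over 5 secondary cell genes (CG17575, lectin-46Ca, lectin-46Cb, Acp32CD and mfas), expression was 399430 to 423650 CPM (counts scaled to a library total of 1000000) in wt, 284300 to 348250 in D1 and 402930 to 508430 in miP. The same sum was 27169 in IP replicate 1, 92739 and 95164 in the other IPs and 7843 in the control IP. The sum of 10 main cell genes was 80.1 to 573 CPM in wt and 445.5 to 1257 in D1, and it was 8524 to 11694 in the IPs and 18681 in the control IP. The 9 testis genes summed to at most 3.18 CPM in wt and to 6300 to 6601 CPM in the IPs, and the 3 ejaculatory duct genes to at most 1.88 CPM in wt, 3.91 to 20.5 CPM in D1 and 1111 to 1364.5 CPM in the IPs. The control IP held more of both, at 10615 CPM of testis genes and 3427 CPM of ejaculatory duct genes. The IP and control IP libraries therefore held transcripts of other male tissues that the sorted libraries nearly lacked. The targeted locus was read through iab-8, which gave 759 to 955 CPM in wt, 45.03 to 91.3 CPM in D1 and 720 to 879 CPM in miP. Gene counts of this kind do not test the removal of the micropeptide itself.

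In wild-type sorted cells 6 of the 8 genes were well detected and hth and vvl were nearly absent. On the RPKM scale, which is CPM per kilobase of exon, Ubx led at 469.7 ± 41.3 (SD, n = 3), a level that placed it 39th of 16497 annotated genes. Ubx was followed by dve at 115.2 ± 11.6 RPKM, prd at 91.3 ± 4.27 RPKM, abd-A at 35.7 ± 3.34 RPKM, Abd-B at 8.97 ± 0.975 RPKM and exd at 2.53 ± 0.159 RPKM. The Ubx level is that of all reads assigned to the gene, and whether the transgenes add reads to it was not tested. The ranges of neighbours in this order did not overlap as far down as exd. hth gave 1 count and vvl 2 counts over all 3 wt libraries, and these last places in the order could not be told apart. In bulk libraries such as these, fewer cells of a type and less RNA per cell cannot be told apart.

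**Figure D1:**
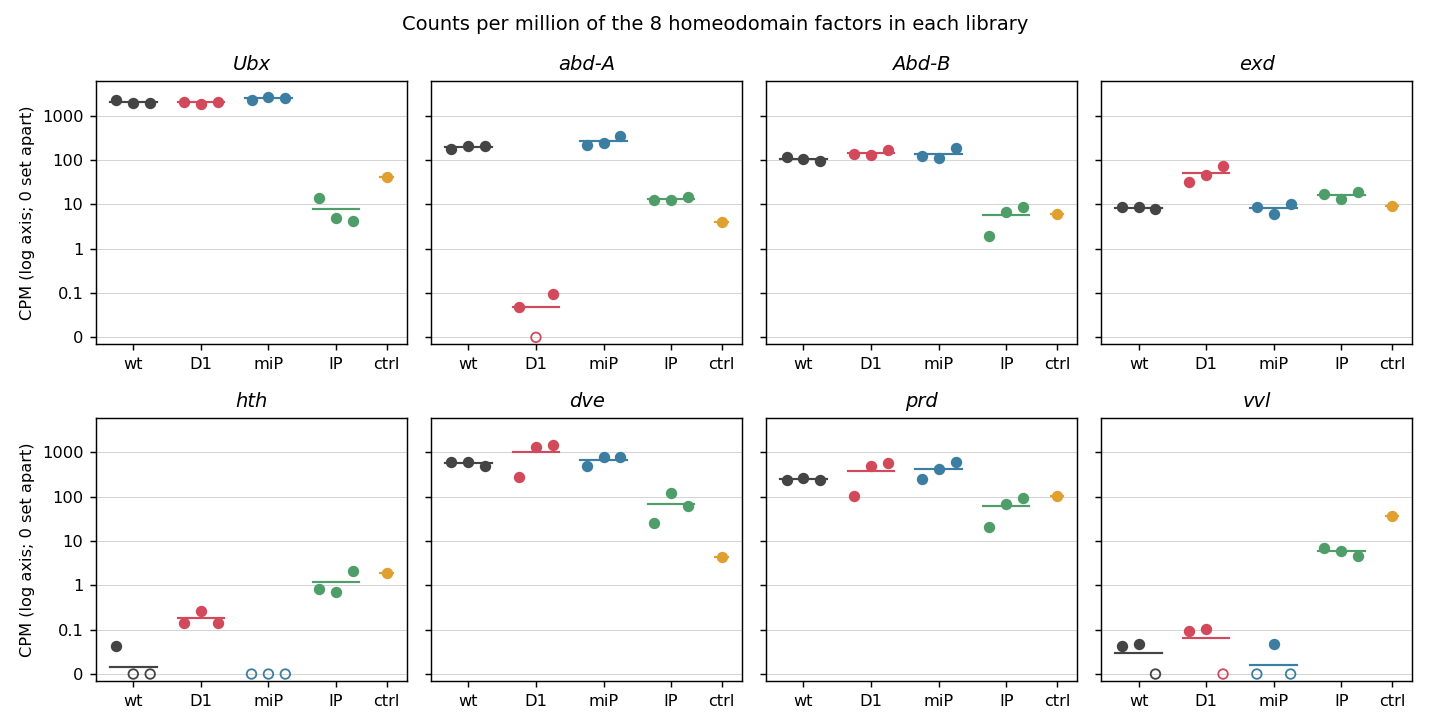
Level of each of the 8 genes in CPM on a log axis, with 1 panel per gene, 1 point per library, a bar at each group mean and open points for libraries with 0 counts. Ubx stayed between 1861 and 2599 CPM in every sorted library, abd-A had 3 counts in D1, and exd was highest in D1.

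Ubx specifies the third thoracic and the first abdominal segment in the embryo. It lies on chromosome 3R at 16656623 to 16734426 (dm6, minus strand), with 4282 exonic bases from 6 transcripts. Of its exonic bases, 51 are shared with an antisense RNA, asRNA:PS4, which counts made without strand cannot separate. Ubx gave 2212, 1945 and 1877 CPM in wt, 1989, 1861 and 2058 CPM in D1 and 2232, 2599 and 2519 CPM in miP. All 9 sorted libraries were thus high in a narrow band, with the miP libraries uppermost. The IPs gave 14.1, 4.86 and 4.299 CPM and the control IP 41.3 CPM, and every IP was below the control and far below every sorted library. Of the counts that fell on the Bithorax trio, Ubx took 86.0 to 88.3% in wt, 92.5 to 93.7% in D1 and 82.4 to 88.1% in miP. In the IPs that share was 49.2% (95% Wilson interval 43.8 to 54.7), 20.5% (17.2 to 24.2) and 15.5% (12.5 to 19.0), and in the control IP it was 80.5% (74.3 to 85.5). These intervals cover counting error only, since amplified reads carry no molecular barcodes.

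abd-A, the Hox gene of the middle abdominal segments, lies at 16807214 to 16830049 of 3R (minus strand), 72.787 kb beyond Ubx, with 5477 exonic bases. It gave 175, 202 and 210 CPM in wt and 218, 242 and 352 CPM in miP. In D1 it gave 1, 0 and 2 counts, so the D1 libraries lay apart from all other libraries. The IPs gave 12.7, 12.2 and 14.8 CPM, close together and above the 4.05 CPM of the control IP.

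Abd-B, the Hox gene of the last abdominal segments and genitalia, lies at 16927212 to 16972236 of 3R (minus strand), 97.162 kb beyond abd-A. Its 10 annotated transcripts cover 11791 exonic bases. It gave 119, 102 and 96.4 CPM in wt, 133, 127 and 166 CPM in D1 and 121, 110 and 185 CPM in miP, before any scaling beyond the library total. The groups of sorted cells overlapped between wt and miP, while D1 lay above wt on this scale. The IPs gave 1.88, 6.64 and 8.66 CPM, a range that held the 5.94 CPM of the control IP.

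The TALE partners differed from each other. exd, on chromosome X at 15992468 to 15996509 (plus strand), gave 8.80, 8.497 and 7.78 CPM in wt and 8.60, 6.004 and 10.1 CPM in miP. It gave 32.4, 46.2 and 73.3 CPM in D1, all above every other library. The IPs gave 16.7, 13.1 and 19.0 CPM and the control IP 9.19 CPM, so exd was the only one of the 6 genes detected in wt whose IP levels, by library total, were above those of the sorted wt cells.

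hth, at 10507561 to 10639568 of 3R (minus strand) and spread over 132.01 kb, gave 1, 0 and 0 counts in wt, 3, 5 and 3 counts in D1 and 0 in each miP library. It was close to the limit of detection throughout the sorted cells, with 12 counts in 9 libraries. The IPs gave 9, 15 and 37 counts and the control IP 7 counts, or 0.805, 0.701 and 2.12 CPM beside 1.89 CPM. An antisense RNA, asRNA:CR44018, shares 207 of its exonic bases.

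dve lies on 2R at 22243963 to 22286469 (plus strand) and prd on 2L at 12082995 to 12085827 (minus strand), where asRNA:CR44592 shares 179 exonic bases of prd. dve gave 598, 605 and 502 CPM in wt, 275, 1340 and 1488 CPM in D1 and 494, 766 and 788 CPM in miP. prd gave 239, 259 and 240 CPM in wt, 105, 484 and 571 CPM in D1 and 254, 411 and 599 CPM in miP. Replicate 1 of D1 was the lowest sorted library for both genes, with the other D1 libraries among the highest. For dve the IPs gave 25.7, 123 and 60.9 CPM and the control IP 4.32 CPM. For prd they gave 20.2, 68.1 and 93.8 CPM, with the control IP higher at 102 CPM. vvl, a gene of 1 exon on 3L at 6790158 to 6794941 (plus strand), gave 7 counts in all 9 sorted libraries. It gave 79, 124 and 82 counts in the IPs and 134 counts in the much smaller control IP, or 7.07, 5.79 and 4.70 CPM beside 36.2 CPM.

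The D1 lesion was followed by the near disappearance of abd-A RNA and by a rise of exd RNA. Of the 6 genes with enough counts to test in sorted cells, these 2 passed an adjusted p of 0.05 in D1 against wt, where 9.77% of all 8222 tested genes did, 6.14% higher and 3.62% lower. The sorted libraries were fitted together by edgeR's quasi-likelihood test on trimmed-mean (TMM) scaled counts, with Benjamini-Hochberg adjustment over all tested genes. For abd-A, the 3 D1 libraries held 3 counts against 13871 in wt, a level 4030.5 times as high in wt by library total (95% counting interval 1379 to 19547), with adjusted p = 8.40e-07. exd was 3.65-fold higher in D1 (log2 fold change 1.87 ± 0.28 SE), with adjusted p = 0.00217 and all 3 D1 libraries above all wt libraries. Both calls held in all 16 alternative settings, in which the log2 fold change of exd ranged from 1.72 to 2.60. In D1 the summed level of 5 neuronal genes was also higher, at 110 to 143 CPM against 30.0 to 35.3 CPM in wt, most of it from nSyb at 118.7 CPM on average, and the ejaculatory duct genes, mainly Gld at 12.7 CPM on average, were higher as well. The part of either signal in the exd result was not tested.

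**Figure D2:**
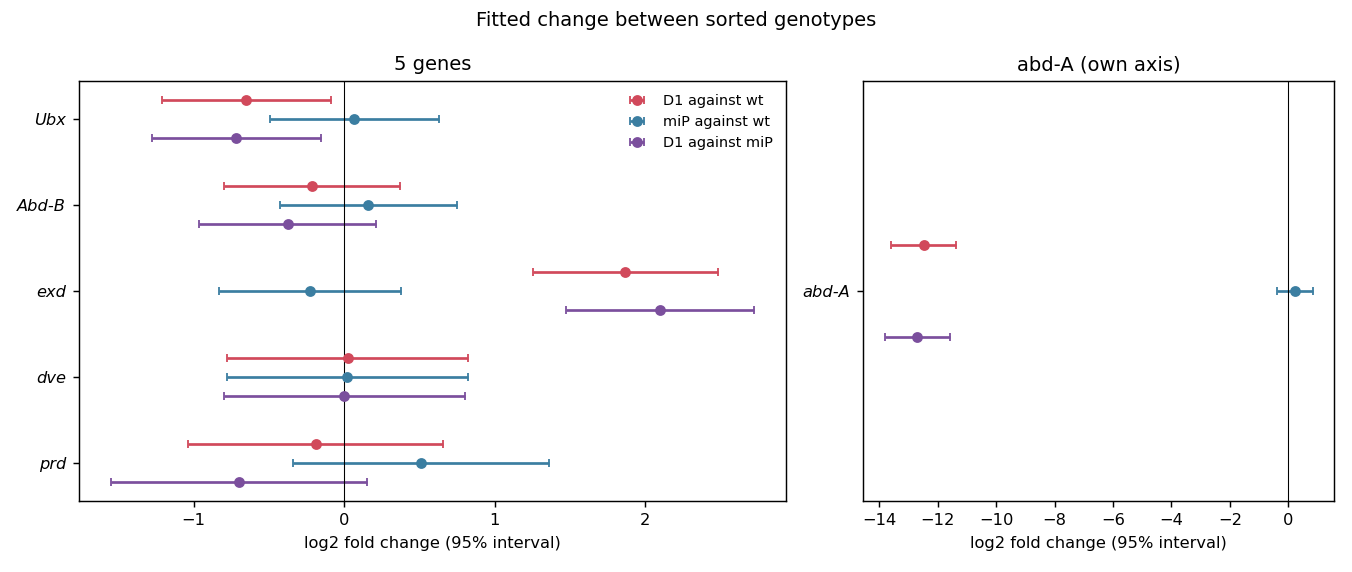
Fitted log2 fold change with its 95% interval for the 6 genes tested in sorted cells, in D1 against wt, miP against wt and D1 against miP, with abd-A on an axis of its own. Only the intervals of exd, abd-A and Ubx in D1 lay clear of 0, and the fitted value of abd-A in D1 rests on 3 counts and is not a bound.

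Ubx and Abd-B, the other Hox genes of the complex, did not pass this test in D1. After scaling, Ubx was at 2661, 2393 and 2354 normalised CPM in wt and at 2198, 1225 and 1302 in D1. The groups did not overlap, yet the log2 fold change of -0.65 ± 0.25 (95% interval -1.21 to -0.09) had an adjusted p of 0.152. Leaving out D1 replicate 1 gave a log2 fold change of -0.97 and an adjusted p of 0.00141, in a fit where 24.3% of all tested genes passed. Scaling by library totals alone gave -0.03 and 0.922. The TMM factors of the D1 libraries were 0.905, 1.52 and 1.58, against 0.798 to 0.831 in wt, so that replicate 1 of D1 stood apart from the others and the Ubx difference appeared only after scaling. Abd-B changed by -0.21 ± 0.26 on the log2 scale (interval -0.80 to 0.37, adjusted p = 0.722), and its sign turned to 0.43 with library totals alone.

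Within libraries, where scaling cancels, Ubx counts per Abd-B count were 18.6, 19.0 and 19.5 in wt and 14.9, 14.7 and 12.4 in D1. The D1 ratios were all lower than the wt ratios, with an exact two-sided permutation p of 0.1, the smallest that 3 libraries against 3 can give. In miP the ratios of 18.5, 23.6 and 13.6 lay on both sides of wt (exact permutation p = 0.7).

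dve and prd varied more within D1 than between D1 and wt. The log2 fold changes were 0.02 ± 0.36 for dve (interval -0.78 to 0.83, adjusted p = 0.981) and -0.19 ± 0.38 for prd (-1.04 to 0.66, adjusted p = 0.843). The signs of both depended on the library left out, with ranges of -0.19 to 0.39 for dve and -0.43 to 0.17 for prd. Without replicate 1 of both mutants, dve was higher in D1 by 0.38 and passed with an adjusted p of 0.0163. In that setting 33.5% of all tested genes passed. Counts of dve per count of prd held a narrow band, at 2.50, 2.33 and 2.09 in wt and 2.61, 2.77 and 2.61 in D1, so the low D1 library was low in both genes alike. In D1 this ratio lay above every wt value, and in miP, at 1.94, 1.87 and 1.31, below every wt value. Each of these comparisons gave an exact permutation p of 0.1. hth and vvl had too few counts for the test. hth gave 11 counts in D1 against 1 in wt, a ratio by library total of 12.6 with a counting interval of 1.83 to 543, and with the expression filter lifted its adjusted p was 0.530.

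**Figure D3:**
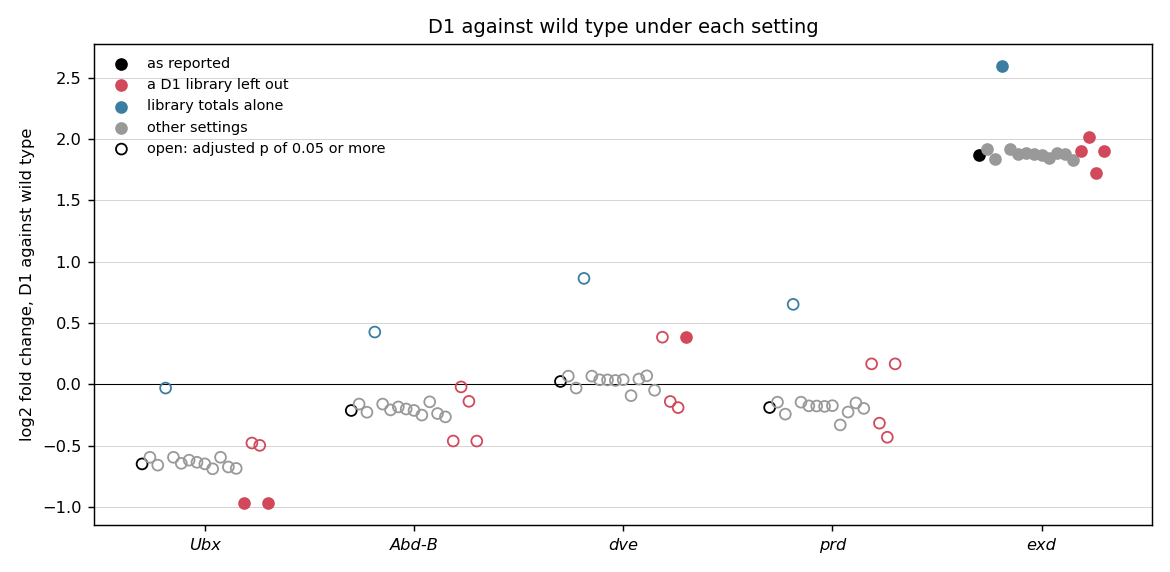
Log2 fold change in D1 against wt for 5 genes as reported (black) and under each alternative setting, with red for a D1 library left out (alone or with miP replicate 1), blue for library totals alone and open points where the adjusted p was 0.05 or more. exd was called at 1.72 or above throughout, Ubx passed in both settings without D1 replicate 1, and dve and prd fell on both sides of 0.

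Removal of MSAmiP left the 8 genes without a call. By edgeR, 0 of the 6 tested members passed against wt, and DESeq2 likewise called 0. Of all tested genes 0.0851% passed, 0.0243% higher and 0.0608% lower, and 292 had an unadjusted p under 0.05. abd-A changed by 0.23 ± 0.28 on the log2 scale, Abd-B by 0.16 ± 0.26, Ubx by 0.07 ± 0.25, exd by -0.23 ± 0.27 and dve by 0.02 ± 0.36. The 95% interval of Ubx ran from -0.49 to 0.63, so changes inside those bounds were not resolved. prd, the paired-domain gene, had the largest estimate at 0.51 ± 0.38 (interval -0.34 to 1.36, adjusted p = 0.940). Without replicate 1 of both mutants, prd passed at 0.68 with an adjusted p of 0.0175, the only member to do so under any alternative. In that setting 11.6% of all tested genes passed as well.

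The mutants were also compared directly, where 10.5% of tested genes were called, 6.74% higher in D1 and 3.81% lower. The same 2 members passed: abd-A had 15505 counts in miP for the 3 in D1, a ratio by library total of 5533 (counting interval 1893 to 26834, adjusted p = 7.35e-07), and exd was 4.28-fold higher in D1 (log2 2.10 ± 0.28, adjusted p = 0.00112). Ubx was lower in D1 by an estimate of -0.72 ± 0.25 that missed the threshold (adjusted p = 0.108). Without D1 replicate 1 it passed at -1.03 (adjusted p = 0.00106), in a fit where 17.7% of all tested genes passed. prd, at -0.70 ± 0.38, had an adjusted p of 0.309, and dve was at 0.00 ± 0.36.

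Ribosome IPs gave far less of the Hox genes, dve and prd than sorted cells did. All 8 genes passed in the IPs against wt sorted cells, 6 lower and 2 higher, but 80.6% of the 11621 tested genes passed as well, 31.5% lower and 49.1% higher, so a call by itself says little here. The median log2 fold change of all tested genes was 0.76, a value that includes genes of the other tissues held by the IPs. The summed secondary cell genes stood at 17.3% of wt by library total, and the members are set beside them below. Ubx was 754-fold lower (log2 -9.56 ± 0.64, adjusted p = 1.64e-06), which placed it at rank 11618 of the 11621 genes from the highest log2 fold change down. Without IP replicate 1, which held the most Ubx, its log2 fold change was -10.23. Abd-B was 54.5-fold lower (-5.77 ± 0.46, adjusted p = 5.03e-06), abd-A 44.0-fold lower (-5.46 ± 0.22, adjusted p = 8.84e-08), dve 24.1-fold lower (-4.59 ± 0.53, adjusted p = 5.20e-05) and prd 12.3-fold lower (-3.62 ± 0.47, adjusted p = 1.10e-04). These 5 kept their sign and call in all 14 alternatives, but the sizes depended on the scaling. The TMM factors were 0.544 to 0.618 in wt and 1.62 to 1.85 in the IPs. With library totals alone the log2 fold changes were -8.03 for Ubx, -4.18 for Abd-B, -3.88 for abd-A, -3.02 for dve and -2.015 for prd.

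exd was lower by -0.61 ± 0.22 on the log2 scale with an adjusted p of 0.0281, a call that did not hold: it was lost with RLE factors, DESeq2, the replicate block and each library left out, and with library totals alone exd was higher by 0.96 (adjusted p = 0.00461). hth and vvl entered this test only through their IP counts and therefore had to differ. They gave 61 against 1 count and 285 against 2 counts, ratios by library total of 86.3 (counting interval 14.9 to 3464.5) and 202 (55.3 to 1673). The testis, duct and main cell genes were higher in the same IP libraries, and their part in these values was not tested.

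**Figure D4:**
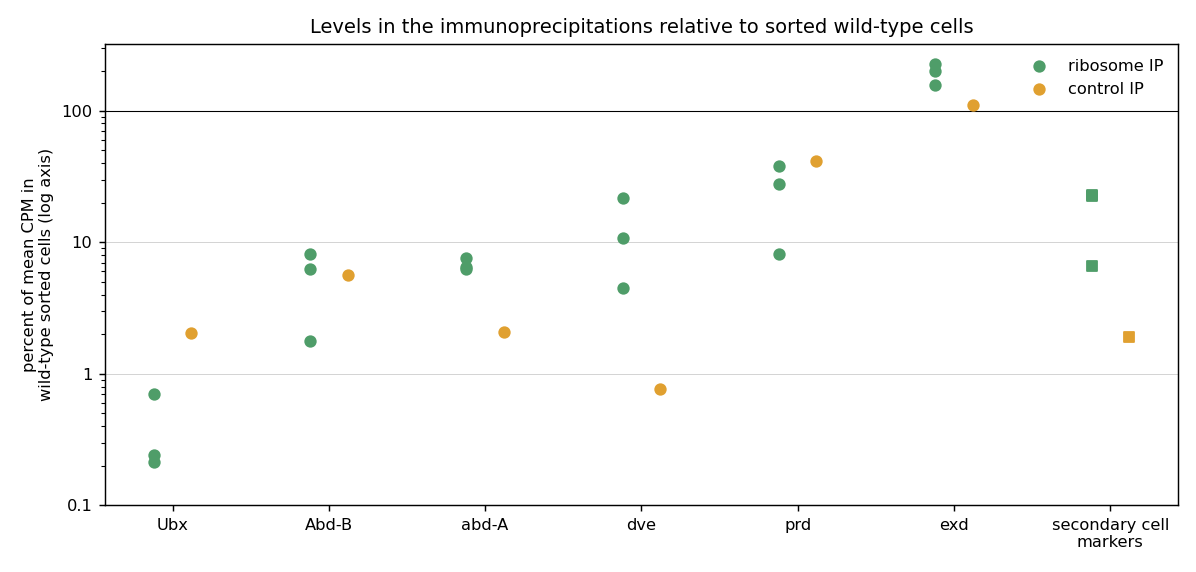
Level in each IP library (green) and in the control IP (orange) as a percentage of the mean CPM of wt sorted cells, on a log axis, for the 6 genes detected in wt and for the summed secondary cell genes (squares, 2 of them nearly on top of each other). Ubx had the lowest mean IP percentage, at 0.386%, and exd the highest, at 195%, against 17.3% for the secondary cell genes.

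By library total, the mean IP level was 24.7% of the wt mean for prd, 12.3% for dve, 6.77% for abd-A, 5.41% for Abd-B and 0.386% for Ubx. The summed secondary cell genes stood at 17.3% and the control IP at 1.90% of wt. The control IP held 41.4% of the wt level of prd, 5.62% of that of Abd-B, 2.07% for abd-A, 2.06% for Ubx and 0.761% for dve. dve and abd-A were therefore above the control, like the secondary cell genes, while prd, Abd-B and Ubx were at or below it.

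Ubx and abd-A, neighbours in the complex, differed in how far they were recovered. Ubx gave 12.6, 9.64 and 8.94 counts per abd-A count in wt, 10.3, 10.7 and 7.15 in miP and 10.2 in the control IP, but 1.11, 0.398 and 0.290 in the IPs. The IP ratios were all below the wt ratios (exact permutation p = 0.1, the smallest possible). The libraries with high Ubx ratios carried UAS-GFP and those with low ratios carried UAS GFP-RPL10Ab, so ribosome capture and genotype cannot be told apart for this gene, and reads of the transgenes were not analysed here.

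The control IP bears on the background of the capture. It was fitted with the 3 IPs and the 3 wt libraries, with the lone control assumed to vary like the other groups. Against it, 3 of the 8 genes passed, where 6.44% of 13165 tested genes did, 6.01% higher and 0.433% lower, with a median log2 fold change of all genes of 0.17. abd-A was 4.38-fold higher in the IPs (log2 2.13 ± 0.35, adjusted p = 0.0130), dve was 21.7-fold higher (4.44 ± 0.92, adjusted p = 0.0273) and vvl was 4.55-fold lower (-2.19 ± 0.52, adjusted p = 0.0445). None of the 3 calls held in every setting: with only these 2 groups in the fit abd-A had an adjusted p of 0.0624 and dve 0.0664, and without IP replicate 3 vvl had 0.129 and dve 0.0599. Ubx was lower in the IPs by an estimate of -1.96 ± 0.60 (adjusted p = 0.0989). Without IP replicate 1, the library with the least secondary cell RNA and the most Ubx, it passed at -2.83 (adjusted p = 8.96e-04), and with DESeq2 it passed at -2.27 (adjusted p = 0.00296). exd was at 1.25 ± 0.35 (adjusted p = 0.0774), Abd-B at 0.37 ± 0.67 (0.811), prd at -0.35 ± 0.60 (0.802) and hth at -0.24 ± 1.25 (0.943).

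Across the 9 sorted libraries, the genes most like each member were found by Pearson's r of log2 normalised CPM. The points share genotype groups and scaling factors, so r is given as a description. For abd-A the closest were CG16758 (r = 0.999), iab-4 (0.999), the non-coding RNA gene next to abd-A, and CR45751 (0.999). By rank (Spearman's rho) the values were lower, at 0.65, 0.86 and 0.78. CR45751 was a low-level gene, at 5.19 normalised CPM in wt and 0 in D1. iab-4 had 20.2 to 26.7 CPM in wt and 0 counts in each D1 library, and CG16758 averaged 941 normalised CPM in wt and 110 in D1. For exd the closest were sn, which encodes the actin bundler fascin (r = 0.984), sina, a ubiquitin ligase gene (0.981), and Dgk, a diacylglycerol kinase gene (0.978). All 3 had higher means in D1, with sn at 16.4 normalised CPM in wt and 55.4 in D1.

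Among the genes closest to the Ubx pattern were CG5056 (r = 0.976) and snRNA:U4:39B (0.971), and that of Abd-B was closest to CG9821 (0.964), CkIIalpha-i1 (0.939) and Eip93F, an ecdysone-induced transcription factor gene (0.929). Only 10 genes exceeded r = 0.9 with Abd-B, against 112 with Ubx, 226 with abd-A, 255 with exd, 273 with prd and 302 with dve. dve was followed most closely by Spt5, a transcription elongation factor gene (0.997), l(3)72Ab (0.988) and Top2, the topoisomerase gene (0.983). prd was followed by CG4629 (0.987), Ack-like (0.982) and twin, which encodes a deadenylase (0.979). The closest partner of dve had nearly equal group means, with Spt5 at 49.1 normalised CPM in wt and 50.03 in D1. D1 replicate 1 lay apart for both genes, at 304 normalised CPM of dve and 116 of prd. The other sorted libraries ranged from 621 to 942 for dve and from 288 to 567 for prd. The part of this library in the r values of dve and prd was not tested.

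Few homeobox genes outside the 8 were detected in sorted cells, and of the 8 hth and vvl were nearly absent too. Of 90 other homeobox genes listed, 10 reached a mean of 1 CPM in wt sorted cells, 12 in D1 and 10 in miP. The share of all genes that reached this level was not worked out. By wt RPKM 4 exceeded exd, and 2 of these, Dr and Awh, exceeded Abd-B. The leading ones were Dr, an msh-class gene, at 27.7 RPKM in wt, Awh, a LIM-homeobox gene, at 9.45 RPKM, schlank, which encodes a ceramide synthase with a homeodomain, at 7.97 RPKM, and the BarH pair at 4.17 RPKM for B-H2 and 2.06 RPKM for B-H1. They were followed by achi, toe, nub, NK7.1 and CG11294 at 0.822, 0.730, 0.577, 0.479 and 0.215 RPKM. In the IPs 48 of the 90 and in the control IP 52 reached 1 CPM, among them toe at 32.3 and 73.6 RPKM and CG11294 at 23.5 and 37.9 RPKM.

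**Figure D5:**
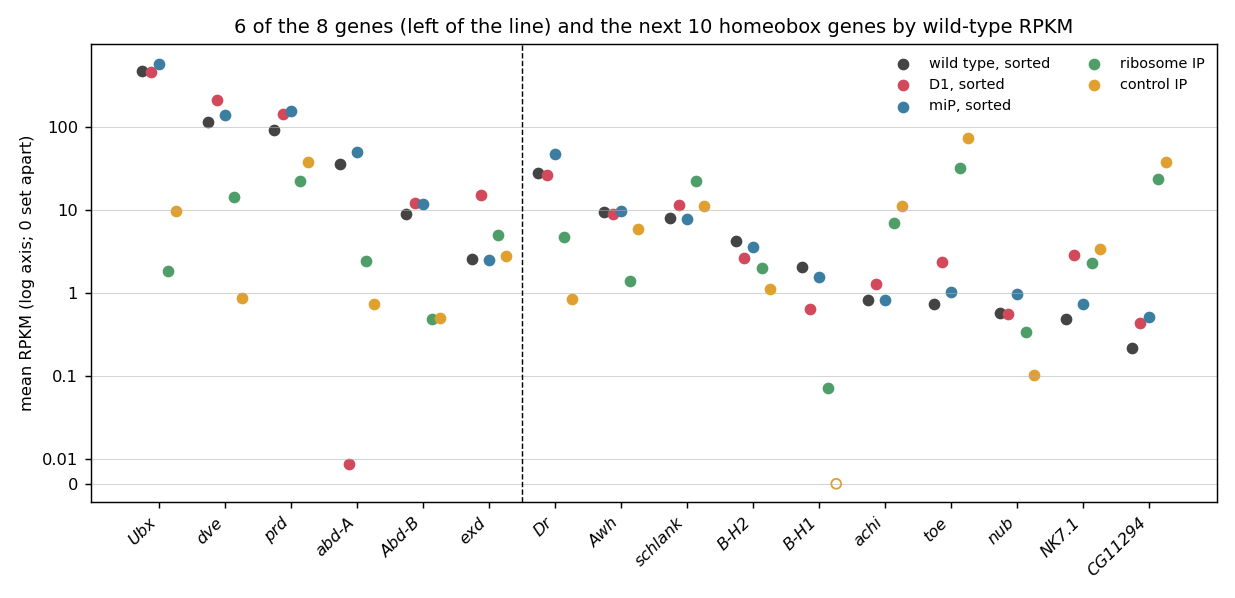
Mean RPKM by group, on a log axis with 0 set apart, for the 6 genes detected in wt and for the 10 other homeobox genes with the highest wt levels. Ribosome and control IP levels were far above sorted levels for toe and CG11294, and B-H1 was lower in D1 than in wt.

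Of the 90, 21 could be tested in sorted cells, and 3 were called in D1 against wt, where 9.77% of all tested genes were, with a median log2 fold change of 0.13 beside 0.00 for all genes. So small a count does not set the list apart from that background. Both BarH genes were lower in D1, B-H1 by 5.71-fold (log2 -2.51 ± 0.57, adjusted p = 0.0212) and B-H2 by 2.75-fold (-1.46 ± 0.32, adjusted p = 0.0181), and NK7.1 was 3.65-fold higher (1.87 ± 0.37, adjusted p = 0.0107). These calls were less firm than those of abd-A and exd: over the 16 alternatives the adjusted p reached 0.108 for B-H1, 0.305 for B-H2 and 0.0593 for NK7.1, without a change of sign. Against miP, NK7.1 was again higher in D1 (1.52 ± 0.36, adjusted p = 0.0252) and Dr was 2.64-fold lower (-1.40 ± 0.29, adjusted p = 0.0118), with adjusted p up to 0.0737 for NK7.1 and 0.238 for Dr over the alternatives. In miP against wt 0 of the 21 were called by edgeR. The 9 other Hox complex genes, from lab to Antp, had too few counts in sorted cells to test.

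Many homeobox genes, such as pb, lab and ftz, had 0 counts in wt sorted cells and entered the comparison of the IPs with wt only through their IP counts, so no count of calls is given for it. Against the control IP 3 of 68 were called, where 6.44% of all tested genes were. schlank was 2.67-fold higher (1.42 ± 0.31, adjusted p = 0.0314) and Awh 3.18-fold lower (-1.67 ± 0.32, adjusted p = 0.0214). HGTX, the remaining call, stood at 5.20 beside 0.131 normalised CPM (adjusted p = 0.0490). With 0 CPM in wt and 0.270 CPM in the control IP, HGTX entered this test only through its IP counts. Its call, and the count that includes it, therefore carry no weight. Of 11 alternatives, the call was lost in 5 for schlank, 2 for Awh and 7 for HGTX. The adjusted p reached 0.113 for schlank, 0.155 for Awh and 0.176 for HGTX.

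Few genes that act on Hox expression were called among the genotypes, on a background of 9.77% of all tested genes in D1 against wt. The Polycomb group keeps Hox genes silent, and 1 of its 19 tested genes, Jarid2, passed in D1, 2.06-fold higher than in wt (1.04 ± 0.27, adjusted p = 0.0383). The trithorax group keeps them active, and 1 of its 20 tested genes, tara, was 2.12-fold lower (-1.09 ± 0.29, adjusted p = 0.0414). Both calls were lost in several alternatives, with adjusted p up to 0.177 and 0.532. Against miP, tara was 2.61-fold lower in D1 (-1.38 ± 0.29, adjusted p = 0.0137), with adjusted p up to 0.171 over the alternatives. None of 13 tested insulator protein genes and neither of the 2 tested Hox collaborators, factors such as tsh and disco that act beside Hox proteins, was called in D1. No listed gene was called in miP against wt.

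In the IPs against wt, where 31.5% of all tested genes were lower and 49.1% higher, 15 of 19 Polycomb group genes were lower and 0 higher, with a median log2 fold change of -1.93 where all genes had 0.76. Psc was 37.3-fold lower (adjusted p = 7.47e-06) and Su(z)2 34.1-fold lower (adjusted p = 1.40e-05). The trithorax group gave 15 of 20 lower and 0 higher, with a median of -2.05, brm among them at 20.3-fold lower (adjusted p = 8.09e-07). The insulator genes gave 9 lower and 3 higher of 13, with a median of -1.14. Against the control IP, where 6.44% of all tested genes were called, these lists had 1 call each at most, with Sfmbt 2.62-fold higher (adjusted p = 0.0444) and mor lower by an estimate of -1.37 (adjusted p = 0.0285), calls whose adjusted p reached 0.370 and 0.185 over the alternatives.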

How the data were processed

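The authors' deposited table held raw counts of reads per gene symbol for 13 libraries, and 0 columns were left unassigned. Per the labels' protocols, poly(dT)-primed cDNA from 2 ng of RNA was amplified with SMARTer, and Nextera XT libraries, which keep no strand, were read as single reads of 100 nt. STAR, HTSeq and the dm6 build are named in the submitters' processing notes, with no version given in the sources used here. Positions and exon lengths came from the Ensembl release 115 annotation of dm6, in which 12512 symbols matched directly, 3985 through a synonym and 230 not at all. RPKM is CPM per kilobase of the union of a gene's exons.

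Tests used edgeR 4.0.16 in R 4.3.3 (quasi-likelihood F-tests, TMM, default expression filter, Benjamini-Hochberg adjustment over all tested genes, threshold 0.05). The 9 sorted libraries were fitted together, the 3 IPs with the 3 wt libraries, and the control IP with both. Each standard error is the log2 fold change divided by the square root of its F, and fitted folds are the edgeR defaults. Ratios of low counts have exact conditional intervals. The fits were also run on counts drawn from their own fitted spread and scaling factors, and no result above rests on that run. The alternatives tried were scaling by library totals alone, upper-quartile or RLE factors, DESeq2 1.42.0, fits without the expression filter or with a minimum of 5 CPM in 3 libraries, other sets of groups, a replicate block, each library left out, and replicate 1 of both mutants left out together. Python 3.11.15, pandas 2.3.3, numpy 2.4.6, scipy 1.17.1 and matplotlib 3.10.9 did the rest.

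The members, gene lists, marker lists and alternatives were chosen with earlier results of these data known. Besides the 8 members, genes were named as the 3 most correlated with each member of at least 5 CPM in wt (prior count 2), up to 4 called genes of each list in each comparison, and the 10 other homeobox genes with the highest wt RPKM; the report names a part of these. iab-8 was added as the check of the targeted locus. Deviations from group means in libraries of the same number correlated at r = 0.432, 0.169 and 0.312 between D1 and miP. D1 replicate 2 correlated as closely with miP replicate 3 (r = 0.170). Between D1 and wt the same-number values were -0.218, -0.034 and -0.221. The reported fits did not pair libraries. Shared numbers entered only through the replicate block and the setting without both replicates 1. Replicates differed by more than sampling noise in every group, so no library was counted as a duplicate.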

Additional observations from a re-analysis of the deposited data

How the results depend on the processing

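Of 484 alternative values of the members' log2 fold changes, 436 kept their sign and their side of the threshold, 17 lost a call, 9 gained one and 22 changed sign. Without replicate 1 of D1 and miP together, 4 members were called in D1 against wt (2 as reported). In miP against wt 1 was called (0 as reported), and in D1 against miP 4 were (2 as reported). Ubx and dve then passed against wt (Ubx -0.97, adjusted p = 1.07e-04), and Ubx and prd against miP (prd -0.51, adjusted p = 0.0487). Calls over all tested genes rose in the same setting, to 33.5%, 11.6% and 20.4% in these 3 comparisons. They were 9.77%, 0.0851% and 10.5% as reported. Members called in the IPs against the control numbered 1 in place of 3 with only the groups compared and 1 with all 13 libraries, and 4 with DESeq2, which called Ubx in addition. With each library left out in turn the members called ranged from 2 to 3 in D1 against wt, 0 to 0 in miP, 2 to 3 in D1 against miP, 7 to 7 in the IPs against wt and 1 to 4 against the control.

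Signs turned as follows. With library totals alone, in D1 against wt Abd-B gave 0.43 and prd 0.65, in D1 against miP Abd-B gave 0.038, in the IPs against wt exd gave 0.96, and against the control Abd-B gave -0.028. With upper-quartile factors dve gave -0.030 in D1 against wt and -0.059 against miP. Without both replicates 1, prd gave 0.17 in D1 against wt. With the replicate block dve gave -0.092 in D1 against wt, -0.0067 in miP and -0.085 in D1 against miP. The block also ended the call of exd in the IPs against wt (adjusted p = 0.0631) and changed no other member's call. Leaving out single libraries, dve ranged from -0.19 to 0.39 in D1 against wt, -0.051 to 0.10 in miP and -0.23 to 0.37 in D1 against miP, prd from -0.43 to 0.17 in D1 against wt, Ubx from -0.00038 to 0.14 in miP, and hth from -0.84 to 0.021 in the IPs against the control. The causes of these changes were not tested.

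Over all genes, calls ranged from 370 to 2860 in D1 against wt (highest without both replicates 1), 0 to 993 in miP, 475 to 1739 in D1 against miP, 7230 to 9775 in the IPs against wt and 217 to 1374 against the control. With library totals alone the split of higher and lower calls was 1450 and 116 in D1 against wt (505 and 298 as reported), 8160 and 1193 in the IPs against wt (5705 and 3656) and 328 and 157 against the control (791 and 57). The order of the wt levels was the same with the longest transcript as the length. Depth limits hth and vvl in sorted cells, where 3 counts equal 0.115 to 0.165 CPM, and the lone control IP, in which 3 counts equal 0.811 CPM.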
